A study of Mus musculus with 12 samples.

Results

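The genes described here are 7 regulators of G protein signalling: Rgs1, Rgs2, Rgs3, Rgs10, Rgs14, Rgs16 and Rgs19. They were taken by symbol from 55487 features measured by RNA-seq in natural killer (NK) cells of the mouse, innate lymphocytes with cytotoxic granules that were sorted before RNA was taken. The mice were of strain B6.129S4-Ifngtm3.1Lky/J and homozygous (mut/mut), so cells of all groups report on interferon gamma through yellow fluorescent protein (YFP), and all cells had been primed with IL-15 (HD IL-15 in the labels). The 3 groups of 4 samples were unstimulated cells, cells stimulated for 6 h with an antibody against the NK1.1 receptor and sorted as reporter-negative (YFP-), and cells stimulated alike and sorted as reporter-positive (YFP+). Samples carry the replicate labels f2, m2, m3 and m4 in each group. The labels give neither the age of the mice nor whether samples with 1 label came from 1 mouse, so p-values measure the spread between these samples. YFP- samples are defined by the reporter signal at the sort and not by whether a cell had responded.

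RGS proteins speed up the hydrolysis of GTP by the alpha subunits of heterotrimeric G proteins. They thereby shorten signals from G protein-coupled receptors, among them the chemokine and sphingosine phosphate receptors that steer lymphocytes. The family is divided into subfamilies by sequence. Of the genes here Rgs1, Rgs2, Rgs3 and Rgs16 belong to the small R4 proteins, Rgs10 and Rgs14 to R12, and Rgs19 to RZ.

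All 7 genes passed the filter on low values (log2 CPM over 0 in 4 samples or more, where CPM is the read count scaled to the library total), as did 12364 genes in all. The lowest value of any of the 7 in any sample was 2.91 CPM. Library totals ran from 32.1 to 54.2 M reads, with M for mega, and 3 reads, taken as the smallest level that can be shown, stood for 0.0553 to 0.0933 CPM. The share of reads on rRNA-like features ran from 27.4 to 35.3% without stimulation, from 15.9 to 30.3% in YFP- samples and from 13.7 to 29.8% in YFP+ samples. The 8 NK cell markers summed to 11682 to 13316 CPM in unstimulated samples, to 6726 to 8158 CPM for YFP- cells and to 7700 to 8104 CPM for YFP+ cells. Gzma was the largest of the 8, at 7843 to 9334 CPM in unstimulated samples. Against unstimulated samples 2 of the 8 were higher and 5 lower in each stimulated group (limma, adjusted p under 0.05). Over all genes tested 30.2% were higher and 20.9% lower in YFP-, and 27.5% and 33.3% in YFP+ samples. Tbx21 rose by 1.28 and 1.34 on the log2 scale in YFP- and YFP+ samples, and Klrk1 by 0.58 and 0.33. Klrb1c, which encodes NK1.1, was at 290.2 to 327 CPM, 57.6 to 86.6 CPM and 3.70 to 8.97 CPM in unstimulated, YFP- and YFP+ samples. The 8 T cell markers summed to 52.8 to 113 CPM, 68.1 to 93.9 CPM and 63.9 to 96.1 CPM, with Cd3e at most at 1.49 CPM. Their members moved in different directions: Trac rose by 2.19 in YFP- samples on the log2 scale and was higher in YFP+ samples too (limma, adjusted p = 1.88e-07 and 1.03e-08), while Cd3g and Cd3d fell in YFP+ samples by 1.22 and by 0.77 (limma, adjusted p = 0.0059 and 0.0119). The 7 B cell markers summed to at most 4.69 CPM, the 8 myeloid markers to at most 3.50 CPM and the 4 erythroid markers to at most 0.123 CPM in any sample. The 6 dendritic cell markers summed to 82.7 to 96.9 CPM, 27.3 to 36.1 CPM and 10.5 to 14.4 CPM, led by H2-Ab1, which fell in both stimulated groups (limma, adjusted p = 1.96e-06 and 3.85e-09). Xcr1 was the next, at 0.828 to 1.84, 3.85 to 6.18 and 1.41 to 2.18 CPM, and rose in YFP- samples (limma, adjusted p = 0.0002). S100a9 was at 0 in all samples. The NK cell sums thus differed between unstimulated and stimulated samples, and the dendritic cell sums between all 3 groups. The T cell sums overlapped across the groups. The part of these marker levels in the results below was not tested. In bulk samples, fewer cells of a type and less RNA per cell cannot be told apart.

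The stretches upstream of 3 of the genes are shown because they bear on genes that differed most: Rgs16 and Rgs2, with the largest rises on stimulation, and Rgs10, the one gene that differed between the stimulated groups. The sequences are the 250 bases before the transcript start from RefSeq on GRCm38.p6, 5′ to 3′ on the strand of the gene. Capitals mark matches to any of 7 short motifs searched on both strands.
Rgs16, chr1:153740103-153740352, plus strand: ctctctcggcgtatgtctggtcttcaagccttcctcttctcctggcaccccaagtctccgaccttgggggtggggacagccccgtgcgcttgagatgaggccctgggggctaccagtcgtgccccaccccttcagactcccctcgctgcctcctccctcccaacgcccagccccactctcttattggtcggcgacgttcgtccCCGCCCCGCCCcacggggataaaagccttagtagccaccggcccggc
Rgs2, chr1:144004150-144004399, minus strand: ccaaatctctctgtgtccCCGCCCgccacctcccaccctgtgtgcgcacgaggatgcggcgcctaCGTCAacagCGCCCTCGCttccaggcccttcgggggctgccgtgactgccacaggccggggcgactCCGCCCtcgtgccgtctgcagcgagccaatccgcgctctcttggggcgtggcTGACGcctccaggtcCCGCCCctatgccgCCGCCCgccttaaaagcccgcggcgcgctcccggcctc
Rgs10, chr7:128418173-128418422, minus strand: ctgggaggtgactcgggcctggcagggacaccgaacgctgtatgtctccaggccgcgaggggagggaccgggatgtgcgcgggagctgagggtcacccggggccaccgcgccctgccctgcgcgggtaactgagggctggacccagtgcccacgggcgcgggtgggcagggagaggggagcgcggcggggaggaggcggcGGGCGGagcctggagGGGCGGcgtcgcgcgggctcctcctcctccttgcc
The Rgs16 stretch held 2 overlapping GC boxes, which begin 47 and 42 bases before the start, and no match to the other motifs. The Rgs2 stretch held 4 GC boxes, 1 EGR site and 2 short matches to the cyclic AMP response element (CRE), the latter 185 and 67 bases before the start. The Rgs10 stretch held 2 GC boxes. Over the 32817 such stretches in the table, the GC box, spelled GGGCGG, was held by 32.7%. The short CRE, spelled TGACG, was held by 17.7% and the whole CRE, spelled TGACGTCA and so holding the short one, by 1.55%. An EGR site, spelled GCGNGGGCG and able to overlap a GC box, was held by 4.70%. For the AP-1 site, spelled TGANTCA, the share was 6.75%. For the NFAT core, spelled GGAAA, the share was 55.6%. For the TATA box, spelled TATAAA, the share was 12.4%. GC content was 66.4% for Rgs16, 72.4% for Rgs2 and 76.4% for Rgs10, against a median of 52.4% over all stretches. The table matched 5 of the 7 genes, with 8 stretches. Both stretches of Rgs3 held a TATA box, which begins 100 and 177 bases before the start, and 1 also held a GC box and an NFAT core. Of the 3 of Rgs19 2 held a GC box, and 1 of these also held an EGR site, as the Rgs2 stretch did. NFAT cores were present in Rgs19 stretches too. Rgs1 and Rgs14 were the genes not matched. A match describes the letters and is no evidence that a factor binds.

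On stimulation the 4 R4 genes rose in both sorted groups, and Rgs16 did so by far more than the others of the 7. In YFP- samples Rgs16, Rgs2, Rgs1 and Rgs3 were higher than in unstimulated samples, and Rgs10, Rgs14 and Rgs19 were not called. In YFP+ samples the same 4 genes were higher and the other 3 were lower. Between the 2 stimulated groups only Rgs10 was called, and it was lower in YFP+ samples. A gene was called at a Benjamini-Hochberg adjusted p under 0.05 over the 12364 genes in limma, fitted to all 12 samples.

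**Figure D1:**
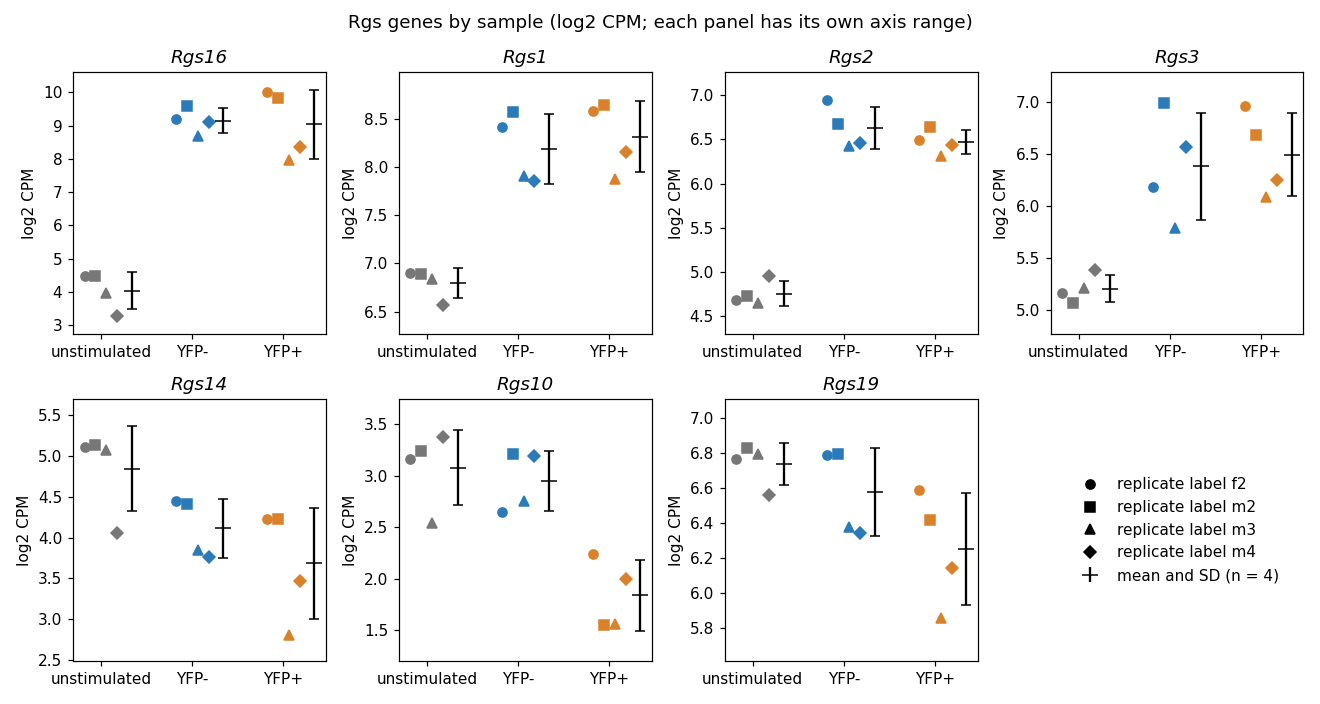
Log2 CPM (vertical axis) of each of the 7 genes in the 3 groups (horizontal axis). Symbols are single samples by replicate label, and bars give the mean and SD of the 4 samples. The 8 stimulated samples lie above all unstimulated ones for Rgs16, Rgs1, Rgs2 and Rgs3, and the 4 YFP+ samples lie lowest for Rgs10.

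Rgs16 is a GTPase activator for the Gi and Gq classes of alpha subunit. Its gene lies at chr1:153740349-153745468 on the plus strand (GRCm38, GENCODE M21). Unstimulated samples f2, m2, m3 and m4 had 22.3, 22.2, 15.5 and 9.68 CPM. YFP- samples had 592, 769, 416 and 550.3 CPM in the same order, and YFP+ samples had 1029, 911, 248 and 331 CPM. The lowest stimulated sample thus stood above the highest unstimulated sample, while the stimulated groups overlapped. The log2 difference was 5.10 ± 0.42 (SE, n = 4 per group) for YFP- against unstimulated, a 34.4-fold rise (limma, adjusted p = 7.45e-07). It was 4.99 ± 0.42 for YFP+ against unstimulated, a 31.8-fold rise (limma, adjusted p = 2.9e-07). By size it ranked 74 among the 6998 genes with a positive difference in YFP- samples and 101 among 6046 in YFP+ samples. All 4 replicate labels were higher in both comparisons.

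The 4 YFP+ samples spread more widely for Rgs16 than the other groups, with an SD of 1.03 on the log2 scale against 0.36 in YFP- and 0.57 in unstimulated samples. Against the YFP- sample of the same label, Rgs16 in YFP+ was higher by 0.80 in f2 and 0.24 in m2, and differed by -0.75 in m3 and -0.73 in m4 on the log2 scale. The difference between the groups was -0.11 ± 0.42, with a 95% interval of -1.02 to 0.80 (limma, adjusted p = 0.877), and its sign changed with the scaling of the samples and with the samples left out. The rRNA-like share ran opposite to these levels: it was 13.7, 16.3, 29.8 and 23.1% in the YFP+ samples f2, m2, m3 and m4, and its part was not tested. With CPM taken over reads outside the rRNA-like features, Rgs16 stood at 1193, 1088, 353 and 430.3 in these samples. A short antisense gene, Gm28513, shares 236 exon bases (10.1%) with Rgs16. The library kit does not mark strand, so reads in the shared stretch cannot be split, and Gm28513 itself had 0 to 15 reads per sample.

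Rgs1, an activator of Gi and Gq hydrolysis that limits the response of lymphocytes to chemokines, was the most abundant R4 gene before stimulation. It lies at chr1:144242296-144249242 on the minus strand. Unstimulated samples f2, m2, m3 and m4 had 119, 119, 115 and 95.2 CPM, YFP- samples 341, 380.2, 240.4 and 232 CPM, and YFP+ samples 384, 401, 235 and 285 CPM. All stimulated samples were above all unstimulated ones. Rgs1 rose by 1.39 ± 0.20 in YFP- (limma, adjusted p = 6.86e-05) and by 1.51 ± 0.20 in YFP+ samples (limma, adjusted p = 1.62e-05), 2.61-fold and 2.86-fold. YFP+ and YFP- samples overlapped, with a log2 difference of 0.13 and a 95% interval of -0.29 to 0.55 (limma, adjusted p = 0.68).

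Rgs2 prefers alpha subunits of the Gq class. It lies 238 kb from Rgs1, at chr1:143999338-144004161 on the minus strand. Unstimulated samples had 25.6, 26.6, 25.0 and 31.0 CPM, YFP- samples 123, 102, 86.0 and 87.9 CPM, and YFP+ samples 90.1, 100.1, 79.4 and 86.5 CPM, in the order f2, m2, m3 and m4. Stimulated samples were tightly grouped, the lowest of them far above the highest unstimulated one. The log2 differences were 1.88 ± 0.14 in YFP- (3.67-fold, limma, adjusted p = 2.79e-07) and 1.72 ± 0.14 in YFP+ samples (3.29-fold, limma, adjusted p = 1.83e-07). Rgs2 had the smallest SE of the 7 genes. The difference between YFP+ and YFP- samples was -0.16, with a 95% interval of -0.45 to 0.14 (limma, adjusted p = 0.453), and its sign turned when samples were centred on their median (0.11).

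Rgs3, an R4 member with long isoforms that can also bind G beta-gamma dimers, lies at chr4:62559847-62704001 on the plus strand. Unstimulated samples f2, m2, m3 and m4 had 35.9, 33.5, 37.2 and 41.8 CPM. YFP- samples had 72.5, 128, 55.4 and 94.8 CPM, and YFP+ samples 125, 103, 68.0 and 76.2 CPM. All stimulated samples were above the unstimulated ones, and m3 was the lowest in both stimulated groups. Rgs3 rose by 1.17 ± 0.24 in YFP- (2.26-fold, limma, adjusted p = 0.00119) and by 1.29 ± 0.24 in YFP+ samples (2.44-fold, limma, adjusted p = 0.000375). Between the stimulated groups it differed by 0.11, with a 95% interval of -0.40 to 0.63 and 2 of 4 labels higher (limma, adjusted p = 0.773). The sign was negative without replicate f2 (-0.11). The gene has 17 annotated transcripts, and gene-level counts do not tell its isoforms apart.

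Rgs10, a small R12 protein selective for Gi alpha subunits, separated the reporter groups. It lies at chr7:128373621-128418758 on the minus strand. Unstimulated samples had 8.92, 9.44, 5.82 and 10.4 CPM and YFP- samples 6.25, 9.24, 6.75 and 9.11 CPM in the order f2, m2, m3 and m4. YFP+ samples had 4.72, 2.91, 2.93 and 3.98 CPM. All YFP+ samples were below all samples of the other groups, which overlapped. Rgs10 fell by 1.24 ± 0.23 on the log2 scale against unstimulated (limma, adjusted p = 0.000315) and by 1.11 ± 0.23 against YFP- samples (95% interval -1.60 to -0.63, limma, adjusted p = 0.00341), 2.37-fold and 2.17-fold. It was lower in YFP+ for 4 of 4 labels, least in f2 (-0.40) and most in m2 (-1.66). Without replicate m2 the difference between the stimulated groups was -0.93 and no longer called (limma, adjusted p = 0.0503). YFP- and unstimulated samples differed by -0.13, with a 95% interval of -0.62 to 0.36 (limma, adjusted p = 0.66). These rest on 106 to 231 reads per YFP+ sample and on 232 to 456 in the other groups.

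Rgs14 joins an RGS domain to a GoLoco motif, which holds Gi alpha in its GDP-bound form, and to Ras-binding domains. It lies at chr13:55369732-55384687 on the plus strand. Unstimulated samples had 34.6, 35.0, 33.5 and 16.6 CPM, YFP- samples 21.8, 21.2, 14.4 and 13.6 CPM, and YFP+ samples 18.7, 18.7, 7.02 and 11.1 CPM, in the order f2, m2, m3 and m4. The unstimulated sample m4 stood within the range of the stimulated samples, and the other 3 stood above it. Rgs14 fell by 1.16 ± 0.33 on the log2 scale in YFP+ samples, 2.23-fold, and was lower for 4 of 4 labels (limma, adjusted p = 0.00739). This call ended without replicate m3, where the difference was -0.79 (limma, adjusted p = 0.0567). In YFP- samples the difference from unstimulated was -0.73 ± 0.33, also lower for 4 of 4 labels, and was not called (limma, adjusted p = 0.0792). Without the unstimulated sample m4 it was -0.99 and called (limma, adjusted p = 0.0209), and with totals outside the rRNA-like features it was -0.91 and called (limma, adjusted p = 0.0131). The 95% interval of YFP+ against YFP- was -1.14 to 0.27 (limma, adjusted p = 0.379).

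Rgs19, also known as GAIP, binds Gi alpha subunits and the adaptor Gipc1. It lies at chr2:181688419-181693977 on the minus strand. Unstimulated samples f2, m2, m3 and m4 had 109, 114, 111 and 94.4 CPM, YFP- samples 111, 111, 83.0 and 81.0 CPM, and YFP+ samples 96.4, 85.6, 58.0 and 70.8 CPM. The groups overlapped in every comparison. Rgs19 fell by 0.48 ± 0.17 in YFP+ against unstimulated samples, 1.40-fold, the smallest called difference among the 7 genes (limma, adjusted p = 0.0217). That call ended without replicate m2 (limma, adjusted p = 0.0585), m3 (0.109) or m4 (0.0568). Without the YFP+ sample m3 alone the difference was -0.35 (limma, adjusted p = 0.0591). YFP- samples differed from unstimulated by -0.16, with a 95% interval of -0.52 to 0.20 (limma, adjusted p = 0.434), and by -0.34 with totals outside the rRNA-like features (limma, adjusted p = 0.0287). YFP+ differed from YFP- by -0.32, with a 95% interval of -0.68 to 0.04 (limma, adjusted p = 0.191).

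**Figure D2:**
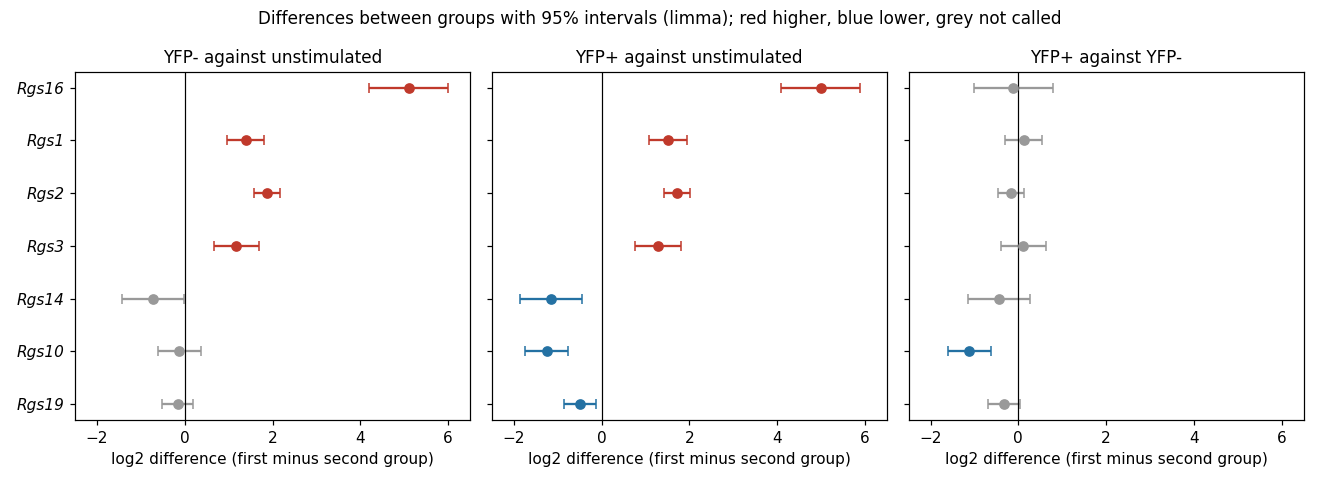
Log2 difference of the first minus the second group (horizontal axis) for the 7 genes (vertical axis), with 95% intervals from limma, in the 3 comparisons. Red points were higher, blue points lower and grey points not called. The 4 R4 genes lie right of 0 in both comparisons with unstimulated samples, and only Rgs10 is called between the stimulated groups.

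Counted together, 4 of the 7 genes were called in YFP- against unstimulated samples, all higher. In that comparison 51.1% of all genes tested were called, 30.2% as higher and 20.9% as lower. In YFP+ against unstimulated samples all 7 were called, 4 higher and 3 lower, where 60.8% of all genes were called, 27.5% as higher and 33.3% as lower. That count fell to 5 without replicate m3 or with no filter. It was 6 without replicate m2 or m4, without the YFP+ sample m3, with trimmed-mean scaling or with voom weights. Only Rgs10, 1 of 7, was called in YFP+ against YFP- samples, where 21.8% of all genes were, 3.28% as higher and 18.5% as lower. These splits by direction depended on scaling. Between the stimulated groups they were 405 genes higher and 2286 lower, but 1505 and 1491 once samples were centred on their medians, 1017 and 1665 after trimmed-mean scaling, 1147 and 1620 under voom weights and 1163 and 1430 with quantiles normalized. In YFP- against unstimulated samples they were 3735 and 2586, but 3124 and 3550 with totals outside the rRNA-like features. The share of the 7 called was thus near the background between the stimulated groups and in YFP- samples. The 7 were chosen with earlier results of these data known, and their count in YFP+ samples was not tested against the background. The groups did not overlap for 4 of 7 genes in YFP- against unstimulated (52.7% of all genes: 30.9% higher, 21.7% lower), for 5 of 7 in YFP+ against unstimulated (54.7%: 24% higher, 30.8% lower) and for 1 of 7 between the stimulated groups (22.1%: 4.31% higher, 17.8% lower). The median log2 difference of the 7 was 1.17, 1.29 and -0.16 in the 3 comparisons, beside 0.14, -0.03 and -0.19 over all genes tested. Both comparisons with unstimulated samples share these 4 samples, so their values for the 7 genes are not independent of each other. Scaling moved the median of all genes: it was -0.06, -0.23 and -0.20 with totals taken outside the rRNA-like features, and -0.0034, 0.10 and 0.07 with samples centred on their medians.

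Levels between genes were compared per length, as CPM per kb of the longest principal transcript. In unstimulated samples Rgs19 was highest at a mean of 70.8 CPM per kb, followed by Rgs1 at 29.2, and neither overlapped its neighbour in the order. Rgs14 at 12.7, Rgs10 at 9.81, Rgs3 at 9.54, Rgs2 at 8.95 and Rgs16 at 7.45 CPM per kb followed, and each of these overlapped the next. In YFP- samples Rgs16 led with 249 CPM per kb and overlapped no other gene. Rgs1 at 77.7 and Rgs19 at 63.8 CPM per kb overlapped each other, as did Rgs2 at 33.1 and Rgs3 at 22.5, and Rgs10 at 8.91 and Rgs14 at 7.53. The order in YFP+ samples was Rgs16 at 269, Rgs1 at 84.9, Rgs19 at 51.4, Rgs2 at 29.5, Rgs3 at 23.9, Rgs14 at 5.89 and Rgs10 at 4.13 CPM per kb. There too the neighbours Rgs1 and Rgs19, Rgs2 and Rgs3, and Rgs14 and Rgs10 overlapped. Rgs16 thus moved from last to first among the 7 on this scale. Per kb of all annotated exons Rgs16 again led in both stimulated groups, and in unstimulated samples it stood at 7.45, between Rgs2 at 7.46 and Rgs14 at 7.06.

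The summed length-scaled level of the 7 genes was 148 ± 12.2 CPM per kb in unstimulated samples (SD, n = 4), 462 ± 101 in YFP- and 469 ± 212 in YFP+ samples. Rgs16 made up 3.15 to 6.15% of that sum without stimulation, 50.5 to 56.2% of it for YFP- and 41.4 to 64.8% for YFP+ cells. The share of Rgs19 was 46.4 to 49.5% without stimulation, 12.5 to 15.6% for YFP- and 9.12 to 15.0% for YFP+ cells. The YFP+ samples m3 and m4 had the smallest Rgs16 shares of the stimulated samples, at 41.4 and 44.2%.

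**Figure D3:**
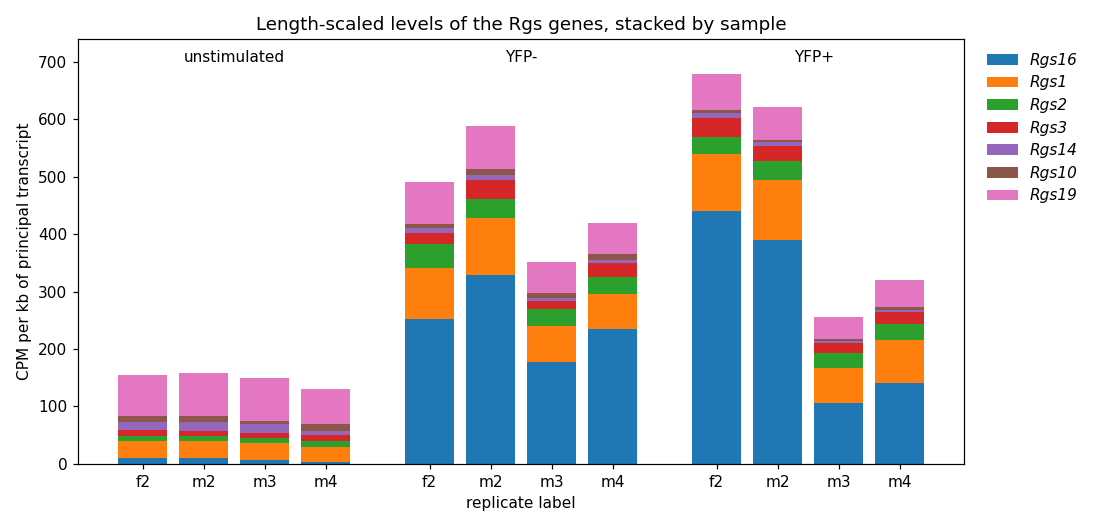
Stacked bars of the CPM per kb of principal transcript (vertical axis) of the 7 genes in each of the 12 samples (horizontal axis, by replicate label within group). Unstimulated bars reach 131 to 159 with Rgs19 as their largest piece, and stimulated bars reach 256 to 679 and are led by Rgs16.

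The family has 21 genes named Rgs in the list used here, and 14 of them are not among the 7. Of these, 9 failed the filter on low values, with at most 11 reads in any library, and 6 of them never exceeded 3 reads. The other 5 were Rgs8, Rgs9, Rgs11, Rgs12 and Rgs18. In the comparisons of YFP- and of YFP+ with unstimulated samples 1 of the 5 was higher and 3 were lower, and 2 were lower in YFP+ than in YFP-. The last count was 0 without replicate m4 or with no filter. It was 1 without f2, m3 or the YFP+ sample m3, and with 8 samples fitted or a filter of log2 CPM above 2. It was also 1 with samples centred on their medians, quantiles normalized, trimmed-mean scaling or voom weights. Of all genes tested, 18.5% were lower in YFP+ than in YFP- samples. Rgs8, an R4 gene whose end lies 40.0 kb before the start of Rgs16, had 36, 44, 44 and 4 reads in the unstimulated samples f2, m2, m3 and m4. It had 207 to 488 reads in YFP- and 145 to 465 reads in YFP+ samples. Rgs8 rose by 3.19 ± 0.57 in YFP- (limma, adjusted p = 0.000401) and by 3.21 ± 0.57 in YFP+ samples (limma, adjusted p = 0.000233). Without the unstimulated sample m4 the rise was 2.44 in YFP- and 2.46 in YFP+ samples, and with a pseudocount of 1 CPM it was 1.96 and 1.97. Both calls were kept in each case. Rgs18, an R4 gene in the cluster of Rgs1 and Rgs2 that lies 503 kb from Rgs1, went the other way. It was at 5.76 to 9.86 CPM without stimulation, 2.95 to 4.29 CPM in YFP- samples and 1.21 to 3.19 CPM in YFP+ samples. Rgs18 fell in YFP- samples (limma, adjusted p = 0.0114) and by 1.92 in YFP+ samples (limma, adjusted p = 6.56e-05). Its call in YFP- samples ended with no filter (limma, adjusted p = 0.081).

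Rgs12, an R12 gene with domains like those of Rgs14, fell by 1.80 in YFP- and by 2.33 in YFP+ samples (limma, adjusted p = 0.000161 and 9.25e-06). With Rgs10 and Rgs14, all 3 R12 genes were lower in YFP+ than in unstimulated samples, and 1 of the 3 was lower in YFP-. Rgs9, an R7 gene best known from photoreceptors and striatum, was well expressed, at 75.9 to 103 CPM in unstimulated samples. It fell by 0.60 in YFP- samples (limma, adjusted p = 0.0495), a call that ended without replicate m2 (limma, adjusted p = 0.165) or m4 (0.268), or without the unstimulated sample m4 (0.13). Rgs11, also of the R7 group, had 86 to 195 reads in unstimulated samples, 74 to 121 reads in YFP- samples and 26, 26, 0 and 5 in the YFP+ samples f2, m2, m3 and m4. It was called lower in YFP+ than in both other groups, and with 1 sample at 0 reads its fitted size depends on the prior. Against YFP- that call ended without replicate m4 (limma, adjusted p = 0.0575). Of the 10 R4 genes 6 passed the filter, of which 5 were higher and 1 was lower in each stimulated group. Rgs8 is among these 5, with a mean log2 CPM of -0.64 in unstimulated samples. It passed the filter through the stimulated samples, where it was high, so the filter favoured its being counted as higher. Of the genes of the other subfamilies 6 passed, and 0 of these were higher in either stimulated group. Over all genes tested 30.2% were higher and 20.9% lower in YFP-, and 27.5% and 33.3% in YFP+ samples, and the difference between subfamilies was not tested.

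**Figure D4:**
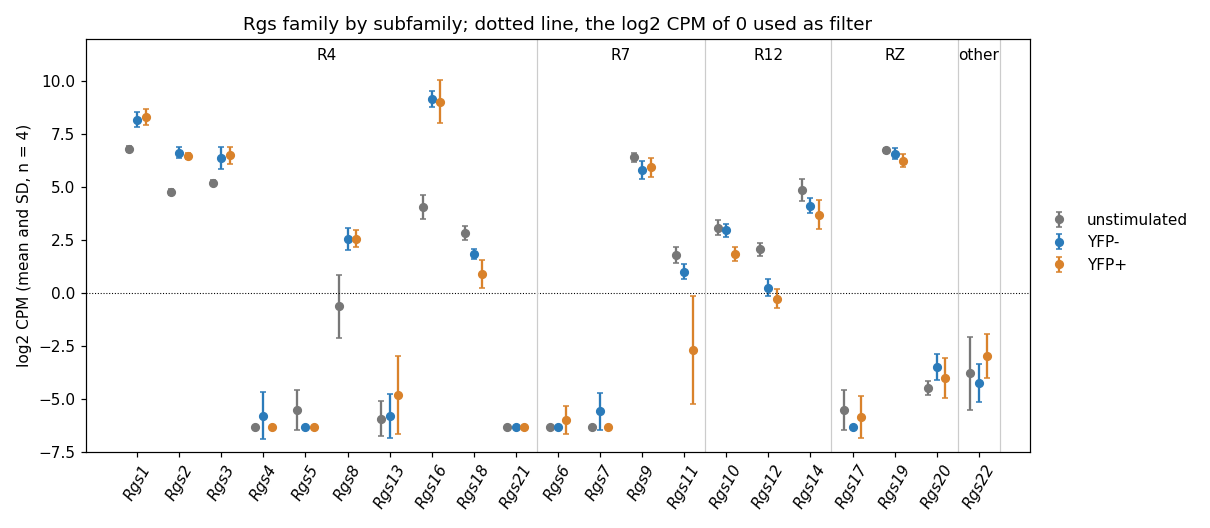
Mean log2 CPM with SD (vertical axis, 4 samples per group) of the 21 Rgs genes (horizontal axis), ordered by subfamily. Among the R4 genes that passed the filter, 5 of 6 are higher in both stimulated groups. Of these 5, Rgs8 lies below the dotted line without stimulation. The 9 genes that failed the filter lie below the line in all groups.

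RGS proteins act on G alpha subunits. Of 13 G alpha genes 8 passed the filter, and 0 were higher, 3 lower and 5 not called in each stimulated group against unstimulated samples, with median log2 differences of -0.09 and -0.44. With totals outside the rRNA-like features, 5 were called in YFP+ samples. Over all genes tested, 30.2% were higher and 20.9% lower in YFP-, and 27.5% and 33.3% in YFP+ samples. The 3 lower of 8 thus stood near that share in YFP+ samples. Gnai2, a main Gi subunit of lymphocytes, fell by 1.35 in YFP- and by 2.18 in YFP+ samples (limma, adjusted p = 0.000127 and 9.01e-07). It was also 0.83 lower on the log2 scale in YFP+ than in YFP- samples (-0.83, limma, adjusted p = 0.0117), a call that ended without replicate f2 (adjusted p = 0.0695) or m3 (0.0586). Gna15, a Gq-class subunit of blood cells, fell by 1.92 in YFP- samples (limma, adjusted p = 1.63e-06) and was lower in YFP+ samples too (limma, adjusted p = 2.8e-08). Gnas, the stimulatory Gs subunit, fell by 0.75 in YFP- samples (limma, adjusted p = 0.00436; 0.0513 without replicate m2) and by 0.82 in YFP+ samples (limma, adjusted p = 0.00166). Of 9 G beta and gamma genes that passed the filter 0 were higher, and 5 were lower in YFP- and 7 in YFP+ against unstimulated samples, among them Gnb1, Gnb2, Gng2 and Gng5 in both. In YFP+ samples Gnb1 fell by 0.57, Gnb2 fell by 1.50 and Gng5 fell by 0.55 (limma, adjusted p = 0.00011, 1.77e-06 and 0.0013). The call of Gng5 in YFP- samples (-0.32, limma, adjusted p = 0.0404) ended without replicate m2 (0.157), m3 (0.138) or m4 (0.0933) and without the unstimulated sample m4 (0.102). Gng2 fell by 1.45 in YFP- and by 2.01 in YFP+ samples (limma, adjusted p = 5.29e-06 and 1.03e-07).

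The receptors moved in both directions. Of 33 G protein-coupled receptors of lymphocytes 25 passed the filter. Against unstimulated samples 13 were higher and 7 lower in YFP- samples, and 7 were higher and 11 lower in YFP+ samples. Between the stimulated groups 0 were higher and 13 were lower in YFP+, with a median log2 difference of -0.76, beside -0.19 over all genes. The shares over all genes tested were 30.2% higher and 20.9% lower in YFP-, and 27.5% and 33.3% in YFP+ against unstimulated samples. Between the stimulated groups they were 3.28% and 18.5%, or 405 and 2286 genes, but 1505 and 1491 genes with samples centred on their medians. The list was not tested against these shares. Ccr2, a chemokine receptor, fell by 1.12 in YFP- and by 2.45 in YFP+ samples (limma, adjusted p = 0.000126 and 5.58e-08), and was lower in YFP+ than in YFP- (-1.33, limma, adjusted p = 0.000135). Cxcr6, another chemokine receptor, rose by 1.24 in YFP- samples (limma, adjusted p = 0.0021) and was lower in YFP+ than in YFP- samples (-1.54, limma, adjusted p = 0.00143). Gpr18 was likewise lower in YFP+ than in YFP- samples (-0.86, limma, adjusted p = 0.00261).

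Among the kinases and arrestins that switch receptors off, 6 of 7 passed the filter, and 0 were higher and 4 lower in each stimulated group. Against unstimulated samples 30.2% of all genes tested were higher and 20.9% lower in YFP-, and 27.5% and 33.3% in YFP+ samples. Arrb1 and Arrb2, the arrestins that uncouple receptors, fell by 1.67 and by 0.99 in YFP- samples (limma, adjusted p = 1.39e-06 and 0.00152). In YFP+ samples Arrb1 fell by 3.25 and Arrb2 fell by 2.57 (limma, adjusted p = 1.59e-09 and 2.31e-07). Both were lower in YFP+ than in YFP- samples, by -1.58 and -1.57 (limma, adjusted p = 1.42e-05 and 0.000183). The receptor kinases Grk2 and Grk6 fell by 0.61 and 1.50 in YFP- samples (differences of -0.61 and -1.50, limma, adjusted p = 0.000671 and 1.15e-06). Of 10 other regulators of G alpha, 1 was higher and 2 were lower in YFP-, and 0 were higher and 5 lower in YFP+ samples. These counts depended on the setting: 3 were called in YFP+ samples without replicate f2, m3 or m4, and 6 in YFP- samples when centred on the median. Gpsm3, a GoLoco protein, fell by 0.85 and by 2.24 in the same 2 comparisons (limma, adjusted p = 0.00126 and 1.6e-07). The adaptor gene Gipc1 and Axin1 were lower in YFP+ samples (-0.34 and -0.38, limma, adjusted p = 0.0365 and 0.0363). The Gipc1 call ended without replicate f2 (0.136), m3 (0.141) or m4 (0.104) and without the YFP+ sample m3 (0.0924), and when samples were centred (0.072) or scaled by trimmed means (0.14). That of Axin1 ended without f2 (0.177), m2 (0.114) or m3 (0.0746), without the YFP+ sample m3 (0.055) and without the unstimulated sample m4 (0.0753), and when centred (0.174) or scaled by trimmed means (0.115). Ric8a, a chaperone of G alpha subunits, was the one that was higher in YFP- samples (1.03, limma, adjusted p = 0.0338), a call that ended without replicate f2 (0.0506), m2 (0.0796) or m4 (0.186) and without the unstimulated sample m4 (0.112).

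Downstream, 10 of 20 effectors of G proteins passed the filter, of which 1 was higher and 7 were lower in YFP-, and 1 was higher and 8 were lower in YFP+ against unstimulated samples. Without replicate m4, 5 effectors were called in YFP-. In the same comparisons 30.2% of all genes tested were higher and 20.9% lower in YFP-, and 27.5% and 33.3% in YFP+ samples. Adcy7, an adenylyl cyclase of blood cells, fell by 1.72 in YFP- and by 2.35 in YFP+ samples (limma, adjusted p = 1.9e-06 and 3.99e-08). Arhgef1, a G protein effector that itself carries an RGS-like domain, fell by 1.06 and by 1.32 (limma, adjusted p = 0.00011 and 8.83e-06). Prex1, an exchange factor driven by G beta-gamma, fell by 1.50 and by 1.76 (limma, adjusted p = 2.84e-06 and 2.38e-07). Pik3r5, a regulatory subunit of a phosphoinositide kinase, fell by 0.79 in YFP+ samples (limma, adjusted p = 0.000314). Its call in YFP- samples (-0.37, limma, adjusted p = 0.0479) ended without replicate m2 (0.0883), m3 (0.242) or m4 (0.253) and without the unstimulated sample m4 (0.116). Of 13 genes of the cyclic AMP branch, all of which passed, 2 were higher and 8 lower in YFP-, and 1 was higher and 8 lower in YFP+ samples. Crem, a transcription factor gene of that branch, rose by 0.87 and by 0.76 (limma, adjusted p = 0.000138 and 0.000236). Prkacb, a catalytic subunit of protein kinase A, fell by 1.03 in YFP- and by 1.74 in YFP+ samples (limma, adjusted p = 6.25e-05 and 2.48e-07). Prkar1a, a regulatory subunit of that kinase, was higher in YFP- samples (0.28, limma, adjusted p = 0.0416), a call that ended without replicate f2 (0.119), m2 (0.252) or m4 (0.071) and without the unstimulated sample m4 (0.0709), and when centred (0.217) or with rRNA-like features left out (0.365). Pde4b, a phosphodiesterase, was lower in YFP+ than in YFP- samples (-1.21, limma, adjusted p = 0.0181), a call that ended without replicate m4 (0.174). With no filter the calls of Gng5, Pik3r5, Ric8a and Prkar1a in YFP-, of Gipc1 and Axin1 in YFP+ and of Pde4b between the sorted groups ended too, at 0.0858 to 0.247. So did the calls of Rgs9 and Rgs18 in YFP- samples (limma, adjusted p = 0.28 and 0.081). Those of Gnai2 and Rgs11 between the sorted groups ended as well (limma, adjusted p = 0.107 and 0.111).

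**Figure D5:**
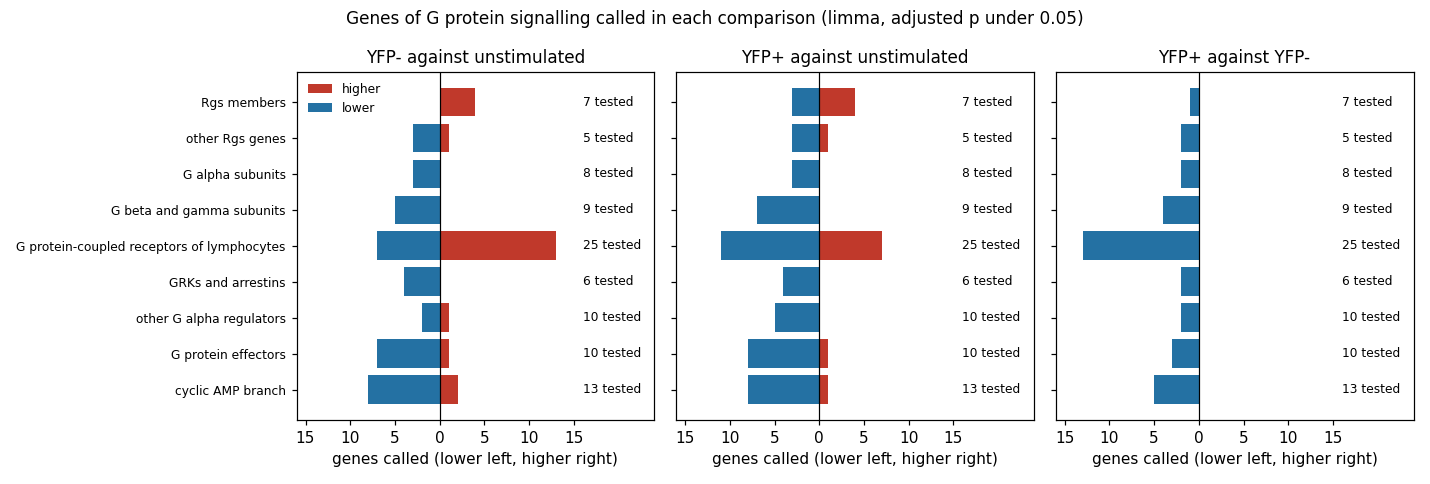
Numbers of genes called higher (right, red) and lower (left, blue) in each list of G protein signalling genes (vertical axis) in the 3 comparisons, with the number tested beside each bar. The 7 Rgs genes and the receptors have the most genes to the right of 0 against unstimulated samples. No list has a gene to the right between the stimulated groups, where 3.28% of all genes tested were higher.

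As a description of likeness over the 12 samples, the 2 protein-coding genes with the highest Pearson correlation to each member were sought among 8222 genes of mean log2 CPM of at least 2. For Rgs16 they were Mapkapk3 (0.994), a kinase acting below p38, and the complement receptor gene C5ar1 (0.993). For Rgs2 they were Rel (0.987), an NF-kappaB subunit gene, and Ptpn5 (0.987), for Rgs1 Slc25a3 (0.989) and Ftl1 (0.986), and for Rgs3 Tm9sf4 (0.982) and Kcnk5 (0.981). The genes that fell had Cd2 (0.936) and Hmces (0.924) for Rgs10, Capzb (0.976) and Lpcat3 (0.976) for Rgs14, and Arpc1b (0.976) and Arhgdia (0.974) for Rgs19. Correlations of at least 0.9 were reached by 1228 genes for Rgs16, 1146 for Rgs1, 882 for Rgs2 and 555 for Rgs3. For Rgs19, Rgs14 and Rgs10 the numbers were 208, 121 and 24. C5ar1 had only 3 to 20 reads in unstimulated samples, so its log2 values there depend on the prior. The samples fall into unstimulated and stimulated sets, and 2 genes in 1 sample share its depth, so no test is attached to these values.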

How the data were processed

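RNA was measured in 12 samples of sorted mouse NK cells, 4 per group. Per the labels' protocols, the SMARTer Ultra Low kit was used on 10 ng of RNA per library, and paired ends of 150 bases were read. The submitters' processing notes name bcl2fastq, STAR 2.7.9a, Subread, featureCounts 2.0.3 and GRCm38. The authors' deposited values are moderated log2 CPM, read counts scaled to the library total after adding a prior, per the file headers and the values. Of 55774 lines 287 repeated another and were dropped, and 0 columns belonged to no sample. Whole reads were recovered from 100% of the values within 0.01 reads (largest difference from the formula 5.15e-14, with a prior of 0.5 reads).

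Genes over a log2 CPM of 0 in 4 samples or more were fitted in limma 3.58.1 (R 4.3.3; lmFit, contrasts, eBayes with trend) with 1 coefficient per group. The fit was tested on simulated data. Folds are on the moderated log2 scale. The floor of 3 reads covers counting error only. Positions and lengths come from GENCODE M21. Other steps used Python 3.11.15, pandas 2.3.3, numpy 2.4.6 and matplotlib 3.10.9. The 7 genes are named whatever their result, with up to 4 genes per list by highest mean level among those called and 2 genes per member by likeness. Rgs11 was named after its values were seen. A receptor that this rule names is not reported here. The members and lists were chosen with earlier results of these data known. The 16 alternatives changed the block, the samples, the filter, the pseudocount (1 CPM), the scaling or the weights.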

Additional observations from a re-analysis of the deposited data

Results flagged for a closer look

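The 4 values of each of the 7 genes in each group were checked for a sample far from the other 3, which gave 21 sets. In 2 of them the gap to the nearest sample, divided by the range, was above Dixon's 95% limit for 4 samples, where chance alone gives about 1.05 of 21. Both concern the unstimulated sample m4. Rgs14 stood at 4.06 log2 CPM there and at 5.07 to 5.13 in the other 3 unstimulated samples (ratio 0.940). Rgs1 stood at 6.57 there and at 6.84 to 6.90 in the others (ratio 0.834). Rgs16 and Rgs19 were also lowest of the group in that sample, while Rgs2, Rgs3 and Rgs10 were highest in it. That sample had the highest rRNA-like share of the group too, 35.3%, and the part of that share was not tested.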

How the results depend on the processing

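Over the 16 alternatives, 2 of them chosen after seeing the data (leaving out the YFP+ sample m3, and the unstimulated sample m4), 13 of the 21 differences of the 7 genes kept their direction and their side of the threshold in each, and 295 of 322 values did. For YFP+ against YFP-, the sign turned for Rgs16 when samples were centred (0.15), with trimmed-mean scaling (0.043), voom weights (0.059), without replicate m3 (0.10) or m4 (0.10) and without the YFP+ sample m3 (0.25), within a range of -0.41 to 0.25 as samples were left out. It turned for Rgs2 when centred (0.11) and for Rgs3 without replicate f2 (range -0.11 to 0.26). With 1 replicate label left out, 0 to 1 of the 7 genes and 1526 to 2109 of all genes were called in that comparison (2389 without the YFP+ sample m3), and 1583 of all genes with no filter, where more genes were tested. With no filter, the YFP+ calls of Rgs14 and Rgs19 against unstimulated ended (limma, adjusted p = 0.0732 and 0.109), and that of Rgs19 also with trimmed-mean scaling (0.0696) and voom weights (0.0717). In YFP- against unstimulated, Rgs14 was called with samples centred (0.0149), quantiles normalized (0.0103), rRNA-like features left out (0.0131) or 8 samples fitted (0.0206), and Rgs19 in the first 3 of these (0.0469, 0.00622, 0.0287). The causes were not tested. Of 1057 values of the other genes named, 91 lost their call and 0 turned.

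Correlations of same-label deviations ran from -0.06 to 0.10 for YFP- with unstimulated samples, from -0.04 to 0.38 for YFP+ with unstimulated samples and from 0.05 to 0.37 for YFP+ with YFP- samples, and were highest for the own label in 1, 2 and 3 of 4 samples. Nothing says that samples with 1 label came from 1 mouse, so the labels were not taken as pairs in the main fit. For the sorted groups 3 of 4 correlations were over 0.1. The main fit treats those samples as independent, which they may not be. With the replicate block, 5, 7 and 1 of the 7 genes and 6682, 7774 and 3098 of all genes were called in the 3 comparisons; Rgs14 in YFP- was then called (limma, adjusted p = 0.0178). Genes near 3 reads are limited by depth. Among the genes named this touches Rgs8, Rgs11, C5ar1 and the markers of few reads, and none of the 7.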
